A study of Mus musculus with 25 samples.

Results

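The comparison set 4 libraries of Mlh3-/- mouse testis (Mlh3_3 to Mlh3_6) against 8 libraries of wild-type testis (WT4 to WT11), which are 12 of the 25 samples of the series. These libraries were chosen because all were made by mechanical dissociation and sequenced on a HiSeq. The unique molecular identifiers (UMIs) of every barcode were summed per gene and library, so that the library is the replicate and each profile is that of a whole testis suspension. Genes were then sorted by the germ cell stage at which other libraries of the series express them, in order to give the changes of spermatid genes apart from those of genes without stage bias.

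MLH3 is a mismatch repair protein that helps to resolve recombination intermediates into crossovers during the pachytene stage of meiosis. Male germ cells pass from spermatogonia through leptotene, zygotene, pachytene and diplotene spermatocytes, divide in meiosis I and II, and then mature as haploid spermatids, which build the acrosome and the tail and replace histones with transition proteins and protamines. In Mlh3-/- males spermatogenesis stops at meiosis, while the Sertoli, Leydig, macrophage and other somatic cells of the testis remain.

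The study profiled testes of several mouse strains with spermatogenesis defects by Drop-seq, a method that encloses single cells with barcoded beads in oil droplets and counts the 3′ ends of their mRNAs by UMI. The 8 wild-type libraries came from C57BL/6 males (C57BL/6J in the study's methods) aged from 3 months 1 day to 9 months 14 days. The 4 Mlh3 libraries came from homozygous Mlh3-/- males, bred from heterozygotes and labelled as B6;129, although the study's methods write this strain as B6.129, the notation of a line backcrossed to B6: Mlh3_4, Mlh3_5 and Mlh3_6 were taken at 2 months and 21, 22 and 23 days, and Mlh3_3 at 8 months 30 days. Genotype and strain background therefore cannot be told apart here, and no sample is labelled as a littermate control. Age was not matched either, as Mlh3_4 to Mlh3_6 were younger than every wild-type testis. The study counted its wild-type libraries as separate animals. For the Mlh3 libraries the sources used here do not say so, and p-values then measure only the spread between these libraries.

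The wild-type libraries held between 2987 and 2996 barcodes and between 2210512 and 3829176 UMIs. The Mlh3 libraries held 799, 1482, 4261 and 3861 barcodes and 2172238, 2811529, 3118919 and 6340116 UMIs, in the order Mlh3_3 to Mlh3_6. No pair of libraries shared more than 27 barcodes. Barcodes with over 10% of their UMIs from mitochondrially encoded genes, a common sign of damaged cells, were 0.0668% to 1.94% of the wild-type barcodes but 83.2%, 67.9%, 66.5% and 68.9% of the Mlh3 barcodes. Results that lead the text are therefore also given over barcodes with at least 200 UMIs and at most 10% mitochondrial UMIs. Mlh3_3 stood apart from the other Mlh3 libraries in its somatic markers and its sex-linked UMIs, and these values are given with and without it.

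The targeted gene was detected in every library. Mlh3 (chromosome 12, 85234520 to 85270599, minus strand, GRCm38) measured 20.5, 45.6, 42.3 and 32.5 CPM (UMIs scaled to library size and edgeR's TMM factors) in Mlh3_3 to Mlh3_6, and 49.8 to 83.8 (median 57.8) CPM in the wild-type libraries. All 4 Mlh3 libraries lay below all 8 wild-type libraries (log2 fold change -0.79 ± 0.19 (SE), adjusted p = 9.65e-04, quasi-likelihood test of edgeR, Benjamini-Hochberg adjusted over all genes tested). Each SE given with an edgeR fold change is the size of that change divided by the square root of the test's F statistic. The direction for Mlh3 depended on the scaling described next: centred on genes without stage bias, the log2 fold change was 0.13 with an adjusted p of 0.52. Drop-seq reads the 3′ end of a transcript, which may lie outside the part deleted in this allele, so these values do not check the labels. Of the 35 tested genes within 1 Mb of Mlh3, where 129 sequence may flank the allele, 14 were higher (40.0%, against 32.5% over all genes) and 13 lower (37.1%, against 31.6%), with a median log2 fold change of 0.08.

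Most genes differed between the groups. Of 21501 genes with at least 5 counts, 64.1% passed an adjusted p of 0.05: 6982 genes (32.5%) were higher and 6796 (31.6%) lower in the Mlh3 libraries. The median log2 fold change over all genes was 0.15. With so large a part of the transcriptome moving, the scale decides where no change lies. TMM assumes that most genes do not move, and relative to it the changes shifted by 0.55 on the log2 scale with plain library totals, by 0.67 with totals that leave out mitochondrially encoded and hemoglobin genes, by 0.92 when the library medians of the genes without stage bias were made alike (the centred scaling), and by -0.06 with DESeq2. Under the centred scaling 74.0% of genes were called, 11708 (54.5%) higher and 4194 (19.5%) lower, so directions of many moderate changes are given under both scales. In these summed profiles, fewer cells of a type and less RNA per cell cannot be told apart.

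Stage classes were set from libraries outside the comparison. Barcodes of WT1, WT2, WT3 and the 2 libraries of Cul4a testis were scored for spermatocyte, spermatid and somatic markers and pooled (882, 1873 and 455 barcodes), and the sorted spermatogonia (296 barcodes, postnatal day 7) served as the premeiotic pool. Most of these barcodes came from the Cul4a libraries, which gave 375 and 372 spermatocyte, 757 and 716 spermatid and 154 and 245 somatic barcodes. WT1, WT2 and WT3 gave 2, 39 and 15 somatic barcodes. The study lists WT1, WT2 and the spermatogonia as dissociated with enzymes. WT1, WT2 and WT3 came from testes of 3 months 21 days, 4 months 2 days and 4 months, and the Cul4a-/- libraries from testes of 1 month 18 days and 1 month 21 days. The spermatogonia were labelled as C57BL/6 with the genotype Pouf51-EGFP, whereas the study's methods give a B6;CBA reporter strain and pooled testes, and stage therefore cannot be told apart from age and strain in that pool. A gene with a mean of at least 30 CPM was called biased to a pool when it was at least 2-fold above the next, and without stage bias when all 4 pools lay within 2-fold of each other. Of the genes tested, 15337 (71.3%) had too few pool counts for a class, with 4914 higher and 4065 lower. A further 3081 were mixed, with 781 higher and 1500 lower. Shares over all genes therefore come mostly from genes of lower expression than the classes. With edgeR's own expression filter, 4792 of 12588 genes were higher and 5025 lower. The classes moved apart. Of the 613 spermatid-biased genes tested, 611 were lower in Mlh3 and 0 higher by edgeR (0 also at an unadjusted p under 0.05, and 0 by DESeq2), against 31.6% lower over all genes, and their median log2 fold change was -7.60, or -7.50 with genes at 0 Mlh3 counts set to the bound that a floor of 3 counts over the group allows. For 606 of them the groups did not overlap, against 22.7% of all genes. The premeiotic-biased genes went the other way, with 1019 of 1448 higher, 129 lower and a median of 0.88, as did the somatic-biased genes, with 178 of 201 higher, 14 lower and a median of 2.42, against 32.5% higher over all genes. When centred, 1333 premeiotic-biased genes were higher and 24 lower, beside 54.5% and 19.5% of all genes. The somatic median was 1.74 without Mlh3_3 and 1.47 over barcodes with at most 10% mitochondrial UMIs, where 164 were higher and 18 lower. Among the 538 spermatocyte-biased genes 62 were higher, 274 lower and 202 not called, with a median of -0.39, beside 32.5% higher and 31.6% lower over all genes. Over barcodes with at most 10% mitochondrial UMIs 103 were higher and 236 lower (median -0.21), and with plain totals 198 were higher and 96 lower (median 0.16). Of all genes, 5554 of 20594 were higher and 6840 lower over those barcodes, and 9915 of 21501 higher and 5001 lower with plain totals. Centred on the genes without stage bias, the spermatocyte-biased genes turned to 334 higher, 33 lower and a median of 0.52, whereas 603 of the spermatid-biased genes remained lower by count under that scale. Over all genes that scale called 54.5% higher and 19.5% lower, with a median of 1.05.

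**Figure D1:**
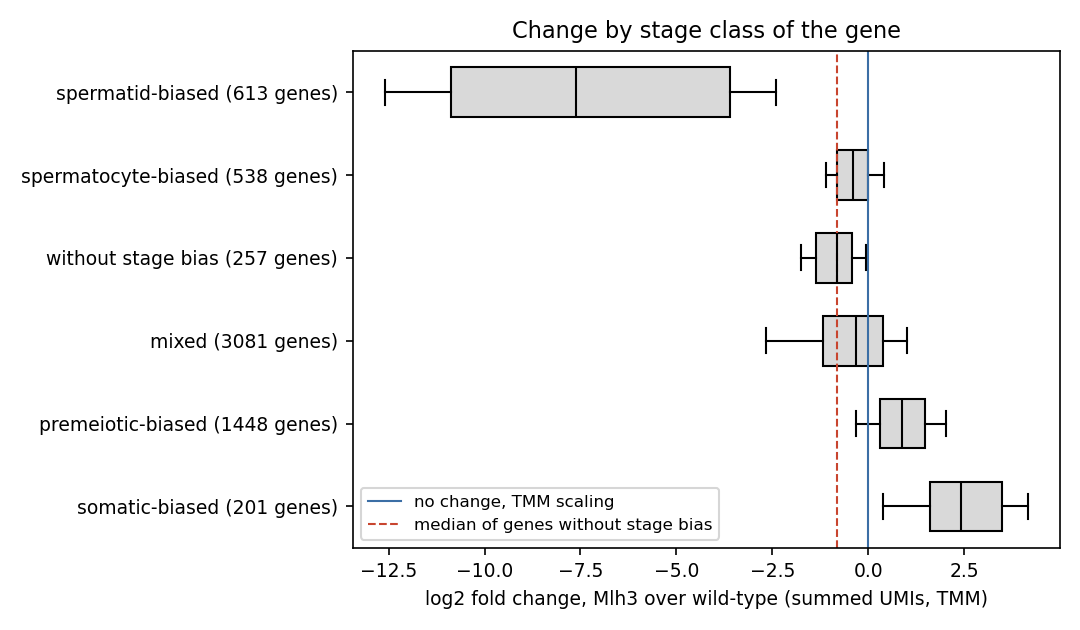
Log2 fold change (Mlh3 over wild-type, summed UMIs, TMM scaling; horizontal axis) of the genes of each stage class. Boxes span the 25th to 75th percentile with the median as a line and whiskers span the 10th to 90th percentile; the spermatid-biased genes (median -7.60) lie far left of every other class, and the dashed line marks the median of the genes without stage bias (-0.81).

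The median fall was larger in genes with the stronger bias. The 497 spermatid-biased genes that were 2-fold to 4-fold above the next pool had a median of -6.54, also with genes at 0 counts at their bound, and 156 of them had at most 3 Mlh3 UMIs. The 116 genes above it by 4-fold to 10-fold had a median of -10.12, or -9.23 with bounds, and 74 of them had at most 3 Mlh3 UMIs. No spermatid-biased gene stood 10-fold or more above the next pool. The spermatocyte and somatic pools also held RNA of Prm1, a spermatid gene, so folds between pools are not folds between pure cell types. How far such RNA lowered these folds was not tested. The 4 Mlh3 libraries together held no UMI of 132 spermatid-biased genes and at most 3 UMIs of 230. The counts were alike without the barcodes rich in mitochondrial RNA and without the older libraries. Over barcodes with at most 10% mitochondrial UMIs 612 of the 613 were lower and 1 was higher. Between Mlh3_4 to Mlh3_6 and the 4 younger wild-type libraries WT6 to WT9, 611 were lower. Even these wild-type testes, from 3 months 1 day on, were older than the 3 Mlh3 testes, so the ages were not matched. By the rule for named genes, the spermatid-biased genes with the smallest adjusted p were BC049635, 1700016H13Rik, 4430402I18Rik, Gstt4 and Aldoart2. BC049635 measured 1.08, 0.262, 0.750 and 0.752 CPM in the Mlh3 libraries and 667 to 830.2 (median 711) CPM in wild-type (log2 fold change -9.94 ± 0.23 (SE), adjusted p = 1.51e-18). Gstt4, of the glutathione S-transferase family, measured 0.359, 0.525, 0.5001 and 0.125 CPM against 584 to 744 (median 671) CPM (log2 fold change -10.83 ± 0.26 (SE), adjusted p = 1.51e-18). These Mlh3 values are a few UMIs per library. For such genes, here and below, the SE comes from the test and can be smaller than the counting error.

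Spermatid genes were also read out in lists by function. Of their 92 members tested, 82 were lower (31.6% over all genes), 1 was higher (32.5%) and 9 were not called, with a median log2 fold change of -5.22, and the groups did not overlap for 76. The Mlh3 libraries held at most 3 UMIs of 31 of these members. Under the centred scaling 65 were lower (19.5% over all genes) and 13 higher (54.5%), and of these 13, 6 belonged to the list of energy metabolism and 5 to that of motility.

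Most genes of histone replacement were close to absent. In all, 9 of 11 were lower (31.6% over all genes), with a median log2 fold change of -12.74, or -12.60 with genes at 0 counts set to their bound. The protamine gene Prm2, whose product packs sperm DNA, gave 256261 UMIs over the 8 wild-type libraries and 3 over the 4 Mlh3 libraries, a ratio of 76835 after scaling (95% counting interval 26291 to 372583). Prm1 gave 164489 and 2 UMIs, a ratio of 73978 (20479 to 610869). The transition protein gene Tnp1 gave 107308 UMIs and 1 UMI, and Tnp2 measured 1.44, 0.525, 2.75 and 1.76 CPM in the Mlh3 libraries against 3440.4 to 6502 (median 5029) CPM (log2 fold change -11.57 ± 0.35 (SE), adjusted p = 1.49e-17). No UMI of Prm3 was seen in Mlh3 against 19049 in wild-type, at least 5711-fold lower when set against a floor of 3 counts over the group. Hils1 and H1fnt, linker histones of spermatids, kept 1 and 2 UMIs against 25240 and 20795. Both exceptions start earlier in spermatogenesis: Brdt, a bromodomain protein first made in spermatocytes, measured 235, 342, 341 and 357 CPM against 283 to 387 (median 323) CPM, and Hist1h1t, the linker histone of pachytene cells, measured 15.4, 16.3, 10.003 and 10.9 CPM against 6.14 to 14.5 (median 8.43) CPM, and neither passed the test, although both were called higher when centred (0.88 and 1.47).

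All 23 acrosome genes were lower (31.6% over all genes), without overlap of the groups (22.7%), with a median of -9.23 (-8.75 with genes at 0 counts at their bound). Within the list the depth of the fall was uneven. Spaca3 and Lyzl6, lysozyme-like proteins of the acrosome, gave no UMI in Mlh3 against 8007 and 7558 in wild-type, at least 2401-fold and 2266-fold lower. Acrv1 kept 2 UMIs against 12968, and Izumo1, the sperm protein that binds the egg, kept 4 against 3136. By contrast Acr, the acrosomal protease acrosin, measured 64.7, 84.7, 103 and 117 CPM against 246 to 311 (median 295) CPM (log2 fold change -1.64 ± 0.15 (SE), adjusted p = 3.98e-09). Crisp2 measured 1008, 1348, 1369 and 1714 CPM against 3357 to 4143 (median 3745) CPM (log2 fold change -1.45 ± 0.15 (SE), adjusted p = 4.12e-08), and Dkkl1 measured 451, 960.1, 1011 and 1119.7 CPM against 1849 to 2270.1 (median 2126) CPM (log2 fold change -1.23 ± 0.19 (SE), adjusted p = 6.92e-06). Under the centred scaling 21 of the 23 were still called lower, against 19.5% over all genes.

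Sperm tail genes showed the same split. All 24 were lower (31.6% over all genes), 20 of them also under the centred scaling (19.5%), with a median of -3.22. Smcp, of the mitochondrial capsule of the midpiece, kept 2 UMIs against 122804 (ratio 55231, 95% counting interval 15289 to 456063), and Akap4, the main protein of the fibrous sheath, kept 1 against 19951. Oaz3, the antizyme of haploid germ cells, measured 0.359, 0.787, 0.5001 and 0.878 CPM against 1636 to 2286 (median 1886) CPM. The paralogs Ropn1 and Ropn1l parted: Ropn1 gave no UMI in Mlh3 against 25312 in wild-type (at least 7589-fold lower), whereas Ropn1l measured 827, 1421, 1639 and 2120.2 CPM against 2641 to 3606 (median 3232) CPM (log2 fold change -1.06 ± 0.19 (SE), adjusted p = 6.04e-05). Odf1 and Odf2, both of the outer dense fibers, parted as well, with 1 UMI against 5538 for Odf1 and 412, 728, 708 and 844 CPM against 2906 to 3588 (median 3140.4) CPM for Odf2 (log2 fold change -2.23 ± 0.18 (SE), adjusted p = 3.66e-10). The tektins Tekt2 and Tekt4 lay between, at -3.18 ± 0.18 and -3.26 ± 0.20 (log2, SE).

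Genes of sperm energy metabolism differed widely in their falls. Of 15, 11 were lower (31.6% over all genes), 1 was higher (32.5%) and the median was -1.01. The glyceraldehyde-3-phosphate dehydrogenase of sperm, Gapdhs, gave no UMI in Mlh3 against 32451 in wild-type, at least 9729.8-fold lower, and the sperm aldolases Aldoart1 and Aldoart2 kept 3 and 6 UMIs against 2800 and 8033. Pgk2, the testis phosphoglycerate kinase, measured 74.7, 108, 111 and 165 CPM against 1066 to 1238 (median 1157) CPM (log2 fold change -3.32 ± 0.18 (SE), adjusted p = 6.44e-13). Ldhc, the lactate dehydrogenase already made in pachytene cells, measured 2371, 4062, 4425 and 5644 CPM against 7800.2 to 9089.7 (median 8345) CPM (log2 fold change -1.01 ± 0.18 (SE), adjusted p = 6.32e-05), and its difference was not called under the centred scaling (-0.11). The testis forms of mitochondrial genes, Cox7b2, Cox8c and Cyct, were not called under TMM (0.24, 0.12 and 0.31) and were higher when centred (1.15, 1.03 and 1.23). Slc2a3, a glucose transporter, was higher, with 270.2, 558, 625.2 and 649 CPM against 264 to 377 (median 306) CPM (log2 fold change 0.74 ± 0.17 (SE), adjusted p = 7.93e-04), although Mlh3_3 lay within the wild-type range. Centred, the list held 6 higher and 7 lower genes, beside 54.5% and 19.5% over all genes.

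Of 19 genes of sperm motility and calcium, 15 were lower and 0 higher by edgeR (0 at an unadjusted p under 0.05, and 0 by DESeq2), beside 31.6% and 32.5% over all genes. Their median was -1.16, and the subunits of the CatSper calcium channel did not move together. Catsper1 and Catsper4 gave no UMI in Mlh3 against 1117 and 2758 in wild-type (at least 335-fold and 827-fold lower), and Catsper3 kept 5 against 2474. Catsper2 measured 153, 247, 201 and 334 CPM against 334 to 439 (median 342) CPM (log2 fold change -0.62 ± 0.16 (SE), adjusted p = 0.00229). The auxiliary subunits Catsperg1, Catsperg2 and Catsperb were not called (-0.04, 0.29 and -0.34). The testis-specific kinases Tssk1, Tssk2, Tssk3, Tssk4 and Tssk6 all fell, with Tssk2 at 3 UMIs against 16934 and Tssk1 at 2.16, 3.41, 4.00 and 3.26 CPM against 449 to 621 (median 501) CPM. Centred, 9 genes of this list were lower (19.5% over all genes) and 5 higher (54.5%), the latter including Catsperg1, Catsperg2 and Catsperb.

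Promoters were searched for 3 motifs known from spermatid genes: the cAMP response element TGACGTCA, an RFX-type element GTTGCCATG and the TATA box TATAAA, on both strands of a window from 250 bases before to 50 bases after the start site. The motifs do not overlap each other in sequence. Of the 613 spermatid-biased genes, 439 had a promoter in the RefSeq table. A gene was counted when any of its promoters held the motif. The response element stood in 19 of the 439 genes (4.33%), against 3.15% of all genes tested that had a promoter and 2.03% of all genes in the table. The RFX-type element stood in 1.14% against 0.912% of genes tested, and the TATA box in 11.4% against 10.2%. Of the genes without stage bias that had a promoter, 11 of 205 (5.37%) held the response element, 2.44% the RFX-type element and 6.83% the TATA box. No difference between these shares was tested. As examples, the promoters of 2 spermatid-biased genes with the response element are printed below with that element in capitals, read 5′ to 3′ from RefSeq sequence on GRCm38.p6. They were chosen after their values were seen. Ccin encodes calicin, a protein of the sperm head cytoskeleton, and gave 1 UMI in Mlh3 against 4359 in wild-type. Znrf4, a membrane protein with a RING finger, gave no UMI against 7754 (at least 2325-fold lower). The windows are chr4:43983254-43983553 (plus strand) for Ccin and chr17:56512434-56512733 (minus strand) for Znrf4. A match describes the letters and not the binding of a factor.
Ccin: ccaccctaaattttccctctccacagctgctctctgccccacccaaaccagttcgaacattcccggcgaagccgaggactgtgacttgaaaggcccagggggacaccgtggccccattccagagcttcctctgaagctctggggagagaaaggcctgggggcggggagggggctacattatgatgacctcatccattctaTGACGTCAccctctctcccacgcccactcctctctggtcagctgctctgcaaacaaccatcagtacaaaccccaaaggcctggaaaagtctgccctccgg
Znrf4: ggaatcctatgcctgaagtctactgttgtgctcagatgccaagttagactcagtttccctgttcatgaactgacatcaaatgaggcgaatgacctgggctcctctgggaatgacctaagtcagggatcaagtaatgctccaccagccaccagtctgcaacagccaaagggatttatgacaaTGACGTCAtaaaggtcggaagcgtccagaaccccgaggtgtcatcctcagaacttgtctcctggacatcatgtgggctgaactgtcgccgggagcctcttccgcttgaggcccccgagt

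The DUF622 genes, a multicopy family of the testis, and the Ssxb genes of the X chromosome fell throughout. All 23 were lower without overlap, against 31.6% lower and 22.7% lower without overlap over all genes. All 23 were also called lower under the centred scaling (19.5% over all genes). The median was -6.94 (-6.18 with genes at 0 counts at their bound), and 20 had at most 3 UMIs in Mlh3. Gm5800 and BC061237 gave no UMI in Mlh3 against 2147 and 2097 in wild-type, at least 644-fold and 629-fold lower, and Ssxb1 gave none against 457. The largest remnant was that of Gm5458, with 0.359, 2.89, 3.75 and 4.14 CPM against 25.2 to 39.4 (median 30.4) CPM. Members of these families are near-identical copies, so counts of single members are uncertain and the list is better read as a whole.

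Genes of the synaptonemal complex, which holds homologous chromosomes together in prophase, moved in both directions. Of 9, 5 were higher and 3 lower, against 32.5% and 31.6% over all genes, and the median was 1.04. Sycp1, of the transverse filaments, measured 680.1, 743, 830.2 and 493.2 CPM in the Mlh3 libraries against 235 to 295 (median 253) CPM (log2 fold change 1.40 ± 0.13 (SE), adjusted p = 4.72e-09). The axis genes Sycp2 (831, 1240.3, 1065 and 842 against 370.0 to 489 (median 433) CPM) and Sycp3 (776, 624, 580.4 and 568.4 against 248 to 349.5 (median 279) CPM) rose by 1.22 ± 0.13 and 1.17 ± 0.12 (log2, SE). For all 3 genes every Mlh3 library lay above every wild-type library. 4930447C04Rik, the symbol under which the files hold the central element gene Six6os1, rose by 1.88 ± 0.16. One central element gene went strongly the other way: Syce2 measured 47.4, 39.3, 48.3 and 46.9 CPM against 278 to 473 (median 386) CPM (log2 fold change -3.07 ± 0.16 (SE), adjusted p = 1.24e-13). In the stage pools Syce2 stood at 785 CPM in spermatid and 87.3 CPM in spermatocyte barcodes, so that these 3′ tags were most abundant in spermatids. Syce3 (-1.08) lost its call under the centred scaling, and Syce1 turned from -0.37 to 0.55.

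The crossover and mismatch repair genes were higher in 11 of 19 cases, against 32.5% over all genes, and lower in 3, against 31.6%, with a median of 0.59. The nuclease gene Exo1 measured 14.7, 11.8, 7.75 and 9.28 CPM against 1.66 to 4.68 (median 3.56) CPM (log2 fold change 1.62 ± 0.26 (SE), adjusted p = 1.39e-05), and the helicase gene Hfm1 measured 90.5, 105, 60.3 and 91.3 CPM against 24.5 to 45.1 (median 33.9) CPM (log2 fold change 1.33 ± 0.17 (SE), adjusted p = 4.76e-07), both without overlap. Msh4 and Msh5, which act as a pair on recombination intermediates, parted: Msh4 measured 12.6, 13.4, 11.8 and 14.8 CPM against 21.7 to 28.7 (median 26.9) CPM (log2 fold change -0.98 ± 0.16 (SE), adjusted p = 1.58e-05), and Msh5 measured 9.34, 13.1, 9.50 and 10.9 CPM against 6.80 to 9.29 (median 7.86) CPM (log2 fold change 0.46 ± 0.20 (SE), adjusted p = 0.0484). The other lower gene beside Mlh3 and Msh4 was Mus81, a nuclease of the minor crossover pathway (-0.81 ± 0.20), and none of these 3 was called lower when centred, where 13 genes were higher (54.5% over all genes) and 0 lower by edgeR (0 at an unadjusted p under 0.05; DESeq2 with its own size factors called these 3 lower).

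**Figure D2:**
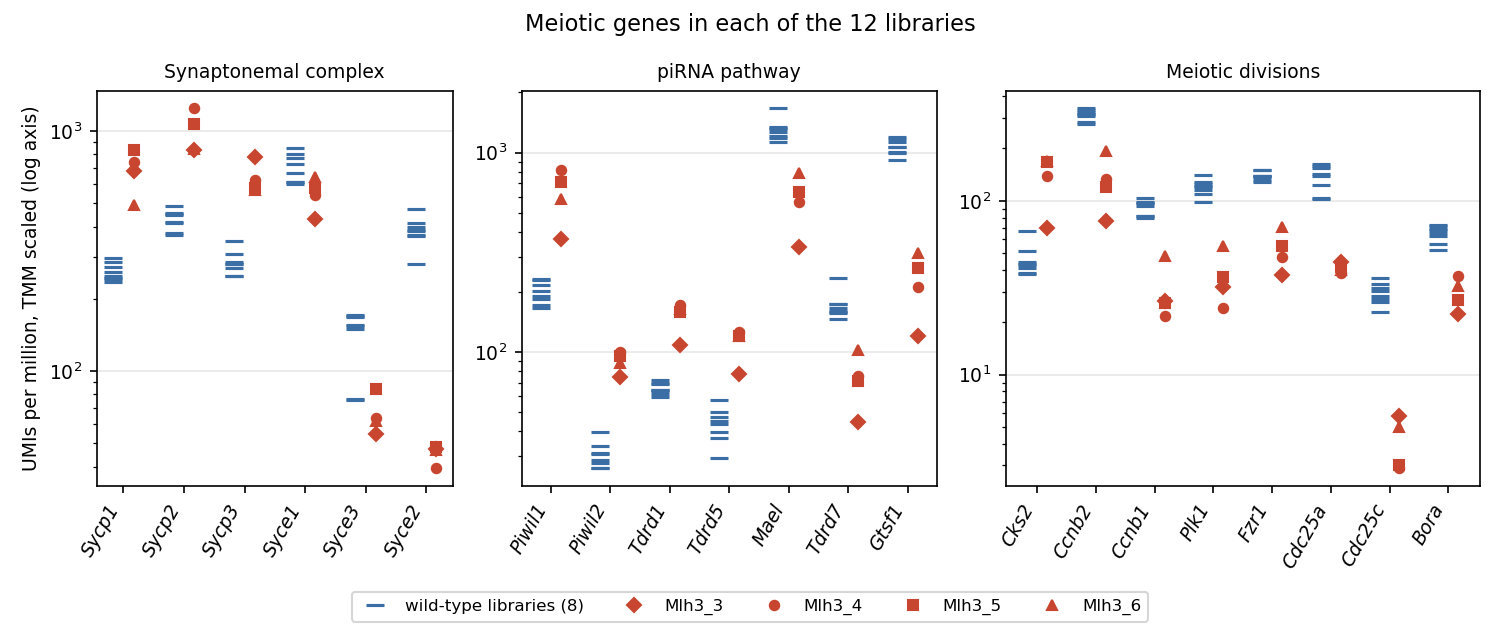
CPM (TMM scaling, log axis) of synaptonemal complex, piRNA pathway and meiotic division genes in each library; blue dashes are the 8 wild-type libraries and red symbols the 4 Mlh3 libraries. Sycp1, Sycp2, Sycp3, Piwil1, Piwil2, Tdrd1, Tdrd5 and Cks2 lie higher in every Mlh3 library than in any wild-type library, while Syce2, Gtsf1 and Cdc25c lie far below.

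The piRNA pathway, in which PIWI proteins and Tudor proteins of the germ granule silence transposons, held 12 higher and 4 lower genes of 18 (median 0.79), with 32.5% and 31.6% over all genes. When centred, 15 were higher and 1 lower, beside 54.5% and 19.5% of all genes. Piwil1 measured 370.0, 822, 710.2 and 583 CPM against 166 to 231 (median 196) CPM (log2 fold change 1.64 ± 0.16 (SE), adjusted p = 1.04e-08), Piwil2 rose by 1.55 ± 0.14, and the helicase gene Mov10l1 by 1.39 ± 0.12. Mybl1, the transcription factor that drives pachytene piRNA genes, measured 145, 169.7, 136 and 179 CPM against 63.5 to 121 (median 96.7) CPM (log2 fold change 0.78 ± 0.15 (SE), adjusted p = 1.22e-04). Against these, Gtsf1 measured 120.4, 212, 263 and 312 CPM against 919 to 1194 (median 1067) CPM (log2 fold change -2.23 ± 0.20 (SE), adjusted p = 2.06e-09) and was lower under both scales. Mael (-1.16) and Tdrd7 (-1.21) were called lower under TMM but not when centred (-0.26 and -0.30), and Ddx4 turned from -0.33 to 0.59.

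Genes of the meiotic divisions had more lower than higher members under TMM. Of 21, 11 were lower (31.6% over all genes), 4 higher (32.5%) and 6 not called, with a median of -0.68, although under the centred scaling 6 were lower (19.5%) and 10 higher (54.5%), with a median of 0.27. The share of UMIs that the list took overlapped between the groups (exact permutation adjusted p = 0.0996). The phosphatase gene Cdc25c, an activator of CDK1 at the entry into division, measured 5.75, 2.89, 3.00 and 5.02 CPM against 23.0 to 35.8 (median 29.2) CPM (log2 fold change -2.81 ± 0.22 (SE), adjusted p = 3.05e-10), and Cdc25a measured 44.5, 38.3, 41.8 and 39.9 CPM against 103 to 163 (median 141) CPM (log2 fold change -1.73 ± 0.15 (SE), adjusted p = 2.69e-09). Plk1, the polo-like kinase, fell by 1.68 and Ccnb1, cyclin B1, by 1.56 on the log2 scale, and Ccnb2 measured 76.9, 134, 120.3 and 193 CPM against 275 to 339.7 (median 316) CPM (log2 fold change -1.25 ± 0.17 (SE), adjusted p = 2.32e-06). These 5 genes and Fzr1, an activator of the anaphase-promoting complex, were the 6 that remained lower when centred. Cdk1 itself was not called under TMM (56.8, 56.1, 57.5 and 93.1 against 50.8 to 79.5 (median 56.2) CPM) and was higher when centred (1.07). Cks2, a CDK-binding subunit, measured 69.3, 138, 167 and 169.6 CPM against 37.9 to 67.2 (median 43.0) CPM (log2 fold change 1.57 ± 0.19 (SE), adjusted p = 2.69e-07), and Ccnb3, Mad2l1 and Bub1b were also higher.

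Among the 498 spermatocyte-biased genes whose second pool was the somatic one, 259 were lower and 54 higher (median -0.40), of the 9 whose second pool was the spermatid one 8 were lower (median -0.82), and of the 31 whose second pool was the premeiotic one 8 were higher and 7 lower (median -0.04), beside 32.5% and 31.6% of all genes. When centred, where 54.5% of all genes were higher and 19.5% lower, the first group turned to 307 higher and 32 lower (median 0.51), the second to 2 higher and 0 lower by edgeR (median 0.10) and the third to 25 higher and 1 lower (median 0.87). Barcodes scored as somatic may also hold germ cell RNA, so a somatic second pool need not mean expression in somatic cells. The part of such RNA was not tested. The spermatocyte-biased genes named by rule were all lower. A930018P22Rik measured 10.1, 13.6, 17.3 and 26.5 CPM against 116 to 158 (median 136) CPM (log2 fold change -2.99 ± 0.20 (SE), adjusted p = 1.85e-11), and 6820408C15Rik, Tekt1, Adad1 and Dedd fell by 1.95, 1.70, 1.67 and 1.66 on the log2 scale. Adad1, a double-stranded RNA-binding protein of germ cells, measured 119, 173, 167 and 226 CPM against 504 to 619 (median 542) CPM.

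Genes of leptotene and zygotene, when double-strand breaks are made and strands invade, were higher in 12 of 21 cases and lower in 2 (median 0.73), beside 32.5% and 31.6% of all genes. When centred, 18 were higher and 0 lower by edgeR, beside 54.5% and 19.5% of all genes. Zcwpw1, a histone methylation reader, measured 85.9, 59.5, 66.8 and 48.0 CPM against 10.5 to 22.9 (median 16.6) CPM (log2 fold change 1.95 ± 0.20 (SE), adjusted p = 2.24e-08). Prdm9, which marks the sites of breaks, measured 14.0, 5.25, 6.25 and 4.77 CPM against 1.28 to 3.91 (median 2.91) CPM (log2 fold change 1.47 ± 0.34 (SE), adjusted p = 7.62e-04). In contrast, Spo11, which cuts the breaks, was not called under TMM (48.9, 92.6, 78.3 and 99.2 against 68.8 to 96.6 (median 76.03) CPM), nor were the cohesin genes Smc1b and Stag3 (-0.19 and -0.11), although all 3 were higher when centred (0.92, 0.74 and 0.80). Tex15 was lower (96.3, 41.2, 27.0 and 30.0 against 124 to 167 (median 139) CPM, -1.58 ± 0.25), but not when centred (-0.60, adjusted p = 0.0531).

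Of 25 genes of spermatogonia 11 were higher, against 32.5% over all genes, and 4 lower, with a median of 1.11 against 0.15. When centred, 17 were higher and 2 lower, beside 54.5% and 19.5% of all genes. The receptor gene Kit, of differentiating spermatogonia, measured 54.6, 17.1, 14.5 and 11.8 CPM against 1.55 to 4.51 (median 3.74) CPM (log2 fold change 2.70 ± 0.34 (SE), adjusted p = 6.61e-07), and Ccnd2, cyclin D2, measured 24.4, 5.51, 11.003 and 5.27 CPM against 0 to 1.33 (median 0.822) CPM (log2 fold change 3.79 ± 0.46 (SE), adjusted p = 3.10e-07). Stra8, the gatekeeper of meiotic entry, measured 48.5, 7.35, 24.8 and 12.7 CPM against 1.33 to 10.1 (median 2.35) CPM (log2 fold change 2.45 ± 0.48 (SE), adjusted p = 1.37e-04), with Mlh3_4 inside the wild-type range. Markers of undifferentiated cells parted: Zbtb16 rose by 1.95 ± 0.42, whereas Gfra1 measured 0.719, 2.62, 1.75 and 1.25 CPM against 2.66 to 6.01 (median 3.61) CPM (log2 fold change -1.32 ± 0.38 (SE), adjusted p = 0.00436), a fall that was not called when centred (-0.42). Without Mlh3_3, 10 genes of the list were higher and 5 lower, with a median of 0.81, beside 6611 and 7066 of all 21180 genes. Over barcodes with at most 10% mitochondrial UMIs the median was 0.67.

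Of the 5 premeiotic-biased genes named by rule, 3 were higher and 2 lower. Kmt2a, a histone methyltransferase, measured 55.0, 31.0, 31.5 and 24.3 CPM against 1.28 to 3.74 (median 2.68) CPM (log2 fold change 3.68 ± 0.24 (SE), adjusted p = 1.32e-11), and in the 2 Cul4a libraries, also labelled as B6;129, it stood at 4.75 and 3.39 CPM without TMM scaling. Anp32b and Zfml rose by 1.76 ± 0.12 and 1.82 ± 0.12. Suv39h2, the testis form of the H3K9 methyltransferase, measured 17.2, 9.44, 7.50 and 5.89 CPM against 78.5 to 109 (median 93.0) CPM (log2 fold change -3.30 ± 0.22 (SE), adjusted p = 1.99e-11), and Hsf2, a heat shock factor of germ cells, 14.4, 7.35, 8.25 and 7.15 CPM against 64.3 to 73.8 (median 72.0) CPM (log2 fold change -2.98 ± 0.18 (SE), adjusted p = 3.68e-12). Both were lower under every scaling.

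Under TMM scaling most genes without stage bias were moderately lower. Of 257 such genes, 203 were lower (31.6% over all genes), 9 higher (32.5%) and 45 not called, with a median of -0.81 and a range from -1.77 (10th percentile) to -0.05 (90th percentile) on the log2 scale. The size of this shift depended on the scale: with plain totals 120 were lower and 42 higher (median -0.25), with totals that leave out mitochondrial and hemoglobin genes 105 and 56 (median -0.14), and centred on themselves, which makes their library medians alike by construction, 81 and 93 (median 0.10). Of all 21501 genes, these scales called 5001 lower and 9915 higher, 4759 and 10502, and 4194 and 11708. Over barcodes with at most 10% mitochondrial UMIs the counts were 203 lower and 9 higher, and between Mlh3_4 to Mlh3_6 and WT6 to WT9 they were 208 and 8.

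The 10 lower genes named by rule were chosen for the size and certainty of their fall, and their values are a description. Their class rests on the values of the pools alone. The spermatocyte and somatic pools also held Prm1 RNA. How far spermatid RNA in these pools hid a spermatid bias of the named genes was not tested. Ribc1, a microtubule-associated protein of cilia, measured 1.44, 0.787, 0.2501 and 0.376 CPM against 121 to 173 (median 146) CPM (log2 fold change -7.81 ± 0.26 (SE), adjusted p = 8.39e-17). Klf4, a Krüppel-like transcription factor abundant in spermatids, measured 7.90, 3.15, 5.25 and 3.89 CPM against 93.5 to 181 (median 129) CPM (log2 fold change -4.81 ± 0.24 (SE), adjusted p = 1.28e-13). Hdac5, a histone deacetylase, measured 5.39, 5.25, 9.50 and 4.77 CPM against 62.5 to 98.8 (median 76.3) CPM (log2 fold change -3.66 ± 0.21 (SE), adjusted p = 1.43e-12), and Chn1, a GTPase-activating protein, 11.1, 14.2, 9.25 and 14.5 CPM against 116 to 148 (median 137) CPM (log2 fold change -3.44 ± 0.16 (SE), adjusted p = 2.73e-14). Gm595, Homez, R3hcc1, Rhno1, Cdkn2aip and 2510003E04Rik fell by between 2.31 and 5.95 on the log2 scale, all without overlap of the groups. In the Cul4a libraries, which share the B6;129 label, Ribc1 stood at 91.4 and 105 and Klf4 at 76.3 and 88.9 CPM without TMM scaling.

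For some genes without stage bias no pool reached the level of the whole wild-type libraries. The wild-type median of Ribc1 was 146 CPM, above its level in each of the 4 pools, the highest of which was 74.9 CPM in spermatids. The same held for 97 of the 257 genes, and for 13 of them whole wild-type libraries were over 1.5 times the highest pool. An added definition, chosen after these values were seen, asked that a gene also lie within 2-fold in the unscored barcodes, in the barcodes under 300 UMIs and in the sorted secondary spermatocytes, which left 118 genes, of which 1 exceeded its highest pool by over 1.5 times. None of the 12 genes named by rule was among the 118. The added pools were shallow. Barcodes under 300 UMIs held 637, 22276 and 124927 UMIs in WT1, WT2 and WT3 and 3 in each Cul4a library. The sorted secondary spermatocytes were 1 MiSeq library of 262054 UMIs (2 months 21 days). A gene could thus also fail the stricter definition through counting error, which was not tested. Of the 118, 92 were lower and 3 higher under TMM (median -0.75), 49 and 20 with plain totals, and 27 and 48 when centred.

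With this stricter definition the number of genes past 2-fold depended on the scale. Centred on the 257 genes, 1 of the 118 was called lower at 2-fold or more and 8 higher (the median of the 118 was then 0.16), with plain totals 8 were lower and 1 higher, and under TMM 39 were lower and none higher, where the count of 0 higher concerns calls at 2-fold only. The 1 gene lower at 2-fold when centred was Oser1, an oxidative stress-responsive gene, with 7.19, 10.2, 8.75 and 16.3 CPM against 41.2 to 63.9 (median 51.9) CPM (log2 fold change -2.23 ± 0.20 (SE), adjusted p = 3.21e-09, centred -1.34). Clpx, of the mitochondrial ClpXP protease, measured 90.2, 71.1, 63.5 and 90.7 CPM against 271 to 317 (median 294) CPM (log2 fold change -1.89 ± 0.13 (SE), adjusted p = 4.81e-11, centred -0.96), and Ergic2, of the early secretory pathway, measured 84.8, 100.5, 109.8 and 120.0 CPM against 347 to 462 (median 363) CPM (log2 fold change -1.87 ± 0.14 (SE), adjusted p = 1.26e-10, centred -0.94). The 3 genes higher under TMM were Atp5h, Daam1 and Gm9843. Atp5h, a subunit of ATP synthase, measured 281, 201, 287 and 235 CPM against 179 to 230.1 (median 204) CPM (log2 fold change 0.30 ± 0.12 (SE), adjusted p = 0.0382), and its groups overlapped.

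Under TMM scaling 9 of the 257 genes without stage bias were higher, against 93 when centred. The 9 were Atp5h, Daam1, Gm10076, Gm5436, Gm9843, Ncoa6, Pom121, Rpl27a and Rpsa. Only Rpsa and Gm10076 had all Mlh3 libraries above all wild-type libraries. Rpsa, a ribosomal protein gene, measured 189.7, 165, 199 and 159.5 CPM against 84.2 to 126 (median 89.3) CPM (log2 fold change 0.89 ± 0.13 (SE), adjusted p = 4.20e-06). Gm10076 measured 21.6, 26.2, 48.0 and 21.3 CPM against 6.14 to 20.8 (median 17.8) CPM (log2 fold change 0.89 ± 0.26 (SE), adjusted p = 0.00575), and lost its call when Mlh3_5 was left out (0.55, adjusted p = 0.0807 by the same test; adjusted p over its alternatives from 6.17e-06 to 0.143).

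A change calculated from composition was set beside the observed change. For 4291 genes with at least 50 counts in the pools, the level in spermatocyte and somatic barcodes of the wild-type reference libraries was divided by the level over all their scored barcodes. This gives the change made by removing spermatid barcodes from the scored barcodes, not from whole libraries. Unscored barcodes, which entered neither side, held 186577, 389621 and 584636 UMIs in WT1, WT2 and WT3. Spermatid barcodes held 68306, 373301 and 322428. Across genes, which are not independent replicates, observed and calculated log2 changes correlated with r = 0.73 (Pearson) and rho = 0.698 (Spearman), and the slope was 2.17. The observed change lay below the calculated one for 88.4% of the genes under TMM. The calculated change is a ratio of CPM over plain totals, and the share was 73.8% with observed changes on plain totals and 59.3% when centred. The calculated changes reached no lower than -4.62, and the spermatocyte pool itself held Prm1 at 828 CPM, whereas 688 of the genes had observed changes under -5. For 143 of these 688 the calculated change was above -0.5.

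**Figure D3:**
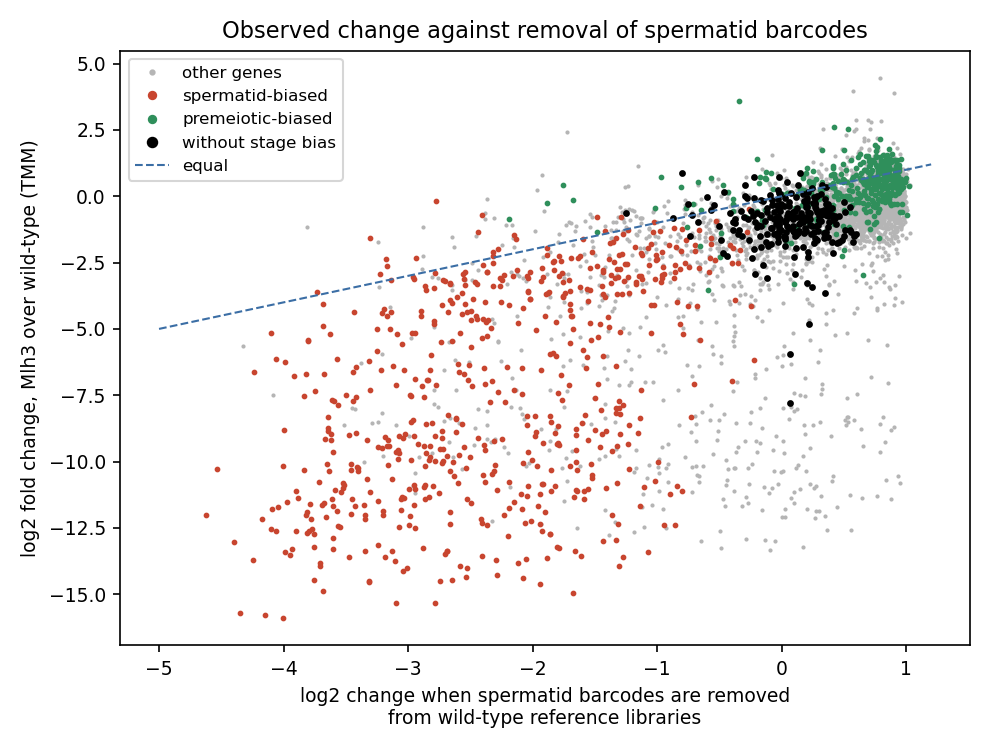
Observed log2 fold change (Mlh3 over wild-type, TMM scaling, vertical axis) against the log2 change when spermatid barcodes are removed from the scored barcodes of the wild-type reference libraries (horizontal axis). There is 1 point per gene for 4291 genes, and the dashed line marks equal values. Spermatid-biased genes (red) reach observed changes near -16, genes without stage bias (black) cluster under the line around -0.8 on the TMM scale, and a band of other genes (grey) falls below -5 with little calculated change.

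The somatic-biased genes with the smallest adjusted p lay in that band, with calculated changes above 0. All 5 named by rule were lower: Sun5, Prr27, Dnah3, 1700011A15Rik and 4930432E11Rik. Sun5, a nuclear envelope protein that couples the sperm head to the tail, gave 1 UMI in Mlh3 against 2467 in wild-type (ratio 2219, 95% counting interval 398 to 87683), and 1700011A15Rik none against 4831 (at least 1448-fold lower). Dnah3, an axonemal dynein, measured 1.08, 1.05, 0.750 and 0.627 CPM against 130.4 to 177 (median 147) CPM (log2 fold change -7.44 ± 0.21 (SE), adjusted p = 7.78e-18). The wild-type medians of Sun5 and Dnah3, 119 and 147 CPM, exceeded their levels in the somatic pool, 101 and 78.6 CPM. The somatic pool also held Prm1 at 7461 CPM, against 39769 CPM in the spermatid pool, so barcodes scored as somatic carried spermatid RNA, and the part of that RNA in the class of these 14 lower genes was not tested.

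Sertoli, Leydig, macrophage and telocyte genes took a larger share of the Mlh3 profiles. Over lists of markers for 8 somatic or blood cell types, 79 of 103 members tested were higher (32.5% over all genes) and 9 lower (31.6%), with a median of 2.38, and for 60 all Mlh3 libraries lay above all wild-type libraries, against 20.2% over all genes. The defining markers of Sertoli, Leydig and macrophage cells were present in every Mlh3 library. Mlh3_3 held the highest level of most of these genes.

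All 16 Leydig markers were called, 15 higher and 1 lower, against 32.5% and 31.6% of all genes, with a median of 3.92. Insl3, the peptide hormone of Leydig cells, measured 914, 192, 773 and 603 CPM in Mlh3_3 to Mlh3_6 against 8.26 to 45.6 (median 28.3) CPM (log2 fold change 4.46 ± 0.34 (SE), adjusted p = 2.30e-10). The steroidogenic genes moved together: Cyp17a1 measured 1296, 337, 530.2 and 346 CPM against 17.6 to 77.5 (median 34.4) CPM (log2 fold change 3.94 ± 0.33 (SE), adjusted p = 1.14e-09), Cyp11a1 341, 115, 154 and 73.7 CPM against 4.16 to 15.7 (median 10.2) CPM (log2 fold change 4.16 ± 0.33 (SE), adjusted p = 3.00e-10) and Star, which brings cholesterol to the inner mitochondrial membrane, 400.2, 73.7, 112 and 29.7 CPM against 2.98 to 10.2 (median 7.41) CPM (log2 fold change 4.31 ± 0.44 (SE), adjusted p = 2.36e-08). The exception was Scarb1, a lipoprotein receptor, with 47.4, 29.1, 32.5 and 23.1 CPM against 49.6 to 82.8 (median 64.7) CPM (log2 fold change -0.9999 ± 0.18 (SE), adjusted p = 5.04e-05), a difference that was lost when centred (-0.05). Without Mlh3_3, which for the lists was read out after the values were seen, 15 were still higher and 1 lower (median 2.88). That fit called 6611 of all 21180 genes higher and 7066 lower. Over barcodes with at most 10% mitochondrial UMIs 14 were higher and 1 lower (median 3.06), against 5554 and 6840 of all 20594 genes.

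All 22 Sertoli markers were higher, against 32.5% of all genes, with a median of 2.34. Clu, the secreted chaperone clusterin, measured 2055, 374, 615 and 358 CPM against 88.4 to 197 (median 109) CPM (log2 fold change 2.85 ± 0.32 (SE), adjusted p = 1.24e-07), and the transcription factor gene Wt1 measured 50.3, 17.6, 19.5 and 15.2 CPM against 1.202 to 7.22 (median 3.41) CPM (log2 fold change 2.83 ± 0.34 (SE), adjusted p = 3.42e-07). Gsta4 rose by 3.11 ± 0.34 and Tsx, a testis gene of the X chromosome, by 2.33 ± 0.24. Without Mlh3_3, 21 were higher (median 1.77), against 6611 of all 21180 genes. Over barcodes with at most 10% mitochondrial UMIs, 18 were higher and none lower, against 5554 and 6840 of all 20594 genes, and the median was 1.12.

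Macrophage genes were higher in 15 of 17 cases (median 2.63) and telocyte and matrix genes in 15 of 15 (median 2.58), against 32.5% of all genes, and in either list 0 were lower by edgeR (0 at an unadjusted p under 0.05, and 0 by DESeq2). Pf4 measured 40.6, 7.87, 15.005 and 5.64 CPM against 0.300 to 1.80 (median 0.701) CPM (log2 fold change 4.28 ± 0.50 (SE), adjusted p = 1.98e-07), and Mrc1, the mannose receptor, 99.2, 22.6, 22.0 and 14.8 CPM against 2.84 to 6.66 (median 4.54) CPM (log2 fold change 3.03 ± 0.39 (SE), adjusted p = 6.79e-07). Pdgfra, a growth factor receptor of interstitial stroma, measured 18.3, 9.44, 12.8 and 11.3 CPM against 0 to 1.66 (median 0.461) CPM (log2 fold change 4.16 ± 0.39 (SE), adjusted p = 5.17e-09), and here Mlh3_3 stood less far from the other Mlh3 libraries. The collagen gene Col3a1 likewise measured 13.3, 14.4, 15.005 and 11.9 CPM against 0 to 3.52 (median 2.14) CPM. Without Mlh3_3 the medians were 1.83 for macrophage and 2.45 for telocyte and matrix genes. Over barcodes with at most 10% mitochondrial UMIs they were 1.54 (12 higher) and 1.77 (14 higher), where 5554 of all 20594 genes were higher.

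**Figure D4:**
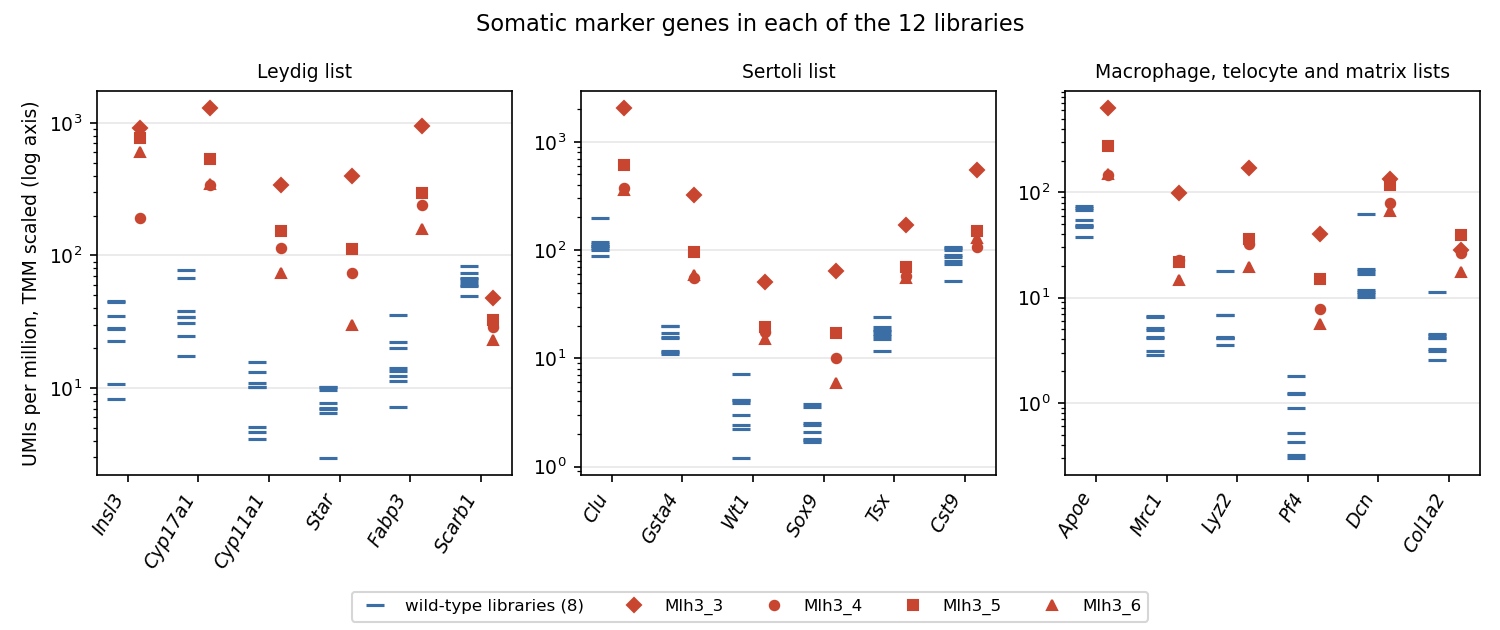
CPM (TMM scaling, log axis) of somatic marker genes in each library; blue dashes are the 8 wild-type libraries and red symbols the 4 Mlh3 libraries. Apart from Scarb1, which lies lower, and 1 library for Cst9, the Mlh3 libraries lie above the wild-type libraries, and Mlh3_3 (diamonds) is the highest Mlh3 library for every gene shown except Col1a2.

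Other somatic lists did not move as one. Peritubular myoid and smooth muscle genes were higher in 5 of 9 cases (median 2.19), against 32.5% over all genes, but this rested on Mlh3_3. Without that library 3 were higher and 2 lower (median 0.32), beside 6611 and 7066 of all 21180 genes. Acta2, smooth muscle actin, measured 39.2, 2.62, 4.25 and 3.01 CPM against 1.03 to 3.99 (median 2.47) CPM. Actg2 of that list, which the pools place in spermatids, measured 1.80, 0.525, 0.2501 and 0 CPM against 273 to 397 (median 329.5) CPM (log2 fold change -9.41 ± 0.35 (SE), adjusted p = 5.07e-16). Endothelial genes were rare and showed 1 higher, 2 lower and 5 not called of 8, and T cell genes showed 2 higher and 4 lower of 8. Over all genes 32.5% were higher and 31.6% lower, and lists of 8 genes are too small to set against these shares. Of the T cell genes, Trbc2 measured 0.719, 0.262, 0.750 and 0.125 CPM against 5.27 to 7.91 (median 6.72) CPM (log2 fold change -3.95 ± 0.41 (SE), adjusted p = 3.18e-08). In the erythroid list the 4 hemoglobin genes were higher and Bpgm, the enzyme of 2,3-bisphosphoglycerate synthesis, was lower (37.7, 47.0, 68.3 and 59.1 against 177 to 212 (median 192) CPM). The genes of amyloid processing and clearance, several of which are also Sertoli or macrophage genes, were higher in 11 of 14 cases (median 2.15), against 32.5% of all genes, with Lrp1 at 20.8, 14.4, 11.8 and 7.90 CPM against 0 to 1.66 (median 0.681) CPM (log2 fold change 3.97 ± 0.38 (SE), adjusted p = 8.17e-09). Without Mlh3_3, 11 of this list were higher and 1 lower (median 1.48), beside 6611 and 7066 of all 21180 genes. Over barcodes with at most 10% mitochondrial UMIs 9 were higher and 2 lower (median 0.76), against 5554 and 6840 of all 20594 genes.

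The checkpoint and p53 response list held 17 higher and 4 lower genes of 28 (median 1.40), where 32.5% and 31.6% of all genes were called. When centred, 21 were higher and 3 lower, beside 54.5% and 19.5% of all genes. Atr, the checkpoint kinase that acts on unsynapsed chromosomes, measured 183, 292, 228 and 242 CPM against 74.0 to 114 (median 83.8) CPM (log2 fold change 1.42 ± 0.13 (SE), adjusted p = 6.63e-09), and Trp53 measured 42.4, 16.0, 18.0 and 18.2 CPM against 4.47 to 9.35 (median 8.19) CPM (log2 fold change 1.62 ± 0.26 (SE), adjusted p = 1.21e-05). Among direct p53 targets, Ccng1 and Trp53inp1 were higher (2.64 and 1.74), while Cdkn1a, Bbc3 and Perp were not called (0.70, -1.01 and 0.09) and Mdm2 was lower under TMM (99.2, 120.4, 111 and 120.4 against 188 to 252 (median 199) CPM, -0.90 ± 0.13) and at 0.02 when centred. Bcl2l11, which encodes the pro-apoptotic protein BIM, measured 8.62, 1.57, 1.25 and 1.38 CPM against 23.8 to 64.1 (median 44.2) CPM (log2 fold change -4.01 ± 0.43 (SE), adjusted p = 4.98e-08), and the pools place it in spermatids. Without Mlh3_3, 15 were higher and 5 lower (median 0.89), beside 6611 and 7066 of all 21180 genes. Over barcodes with at most 10% mitochondrial UMIs 13 were higher and 6 lower (median 0.72), where 5554 of all 20594 genes tested were higher and 6840 lower.

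Of 16 immediate early and heat shock genes, which respond within minutes to handling of cells, 9 were higher and 4 lower (median 1.54), compared with 32.5% and 31.6% over all genes. Hspa8 measured 194, 71.4, 85.5 and 55.6 CPM against 13.4 to 24.2 (median 21.2) CPM (log2 fold change 2.29 ± 0.24 (SE), adjusted p = 2.67e-08), and Jun, Fos and Egr1 rose by 1.70, 3.05 and 2.20 on the log2 scale. Nr4a1 and Dusp1, of the same early response, were lower: Nr4a1 measured 2.16, 1.84, 2.00 and 0.251 CPM against 18.9 to 33.6 (median 22.6) CPM (log2 fold change -4.13 ± 0.36 (SE), adjusted p = 1.45e-09). Without Mlh3_3 the list held 9 higher and 4 lower genes, with a median of 0.93, beside 6611 and 7066 of all 21180 genes. Over barcodes with at most 10% mitochondrial UMIs it held 7 and 5 (median 0.64), against 5554 and 6840 of all 20594 genes.

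Mitochondrially encoded transcripts took 13.4%, 9.47%, 7.04% and 6.41% of the UMIs of Mlh3_3 to Mlh3_6 and 0.963% to 1.72% (median 1.24%) of those of wild-type, so that the groups did not overlap (exact permutation test over libraries, two-sided, p = 0.00202, the smallest that these 12 libraries allow, adjusted p = 0.00298 over a family of 28 shares). Ribosomal protein transcripts took 2.59%, 2.90%, 3.51% and 2.54% against 1.22% to 1.74% (exact permutation adjusted p = 0.00298). Hemoglobin transcripts took 0.00442%, 0.00352%, 0.0607% and 0.0295% against 0.000746% to 0.00882% (exact permutation adjusted p = 0.0283). Mlh3_5 and Mlh3_6 were high in hemoglobin, and Mlh3_3 and Mlh3_4 lay within the wild-type range. The hemoglobin call was lost without Mlh3_5 (exact permutation adjusted p = 0.0812), without Mlh3_6 (0.0848) and between Mlh3_4 to Mlh3_6 and WT6 to WT9 (0.0667). The part of mitochondrial or blood RNA in the other differences was not tested beyond the values over barcodes with at most 10% mitochondrial UMIs.

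**Figure D5:**
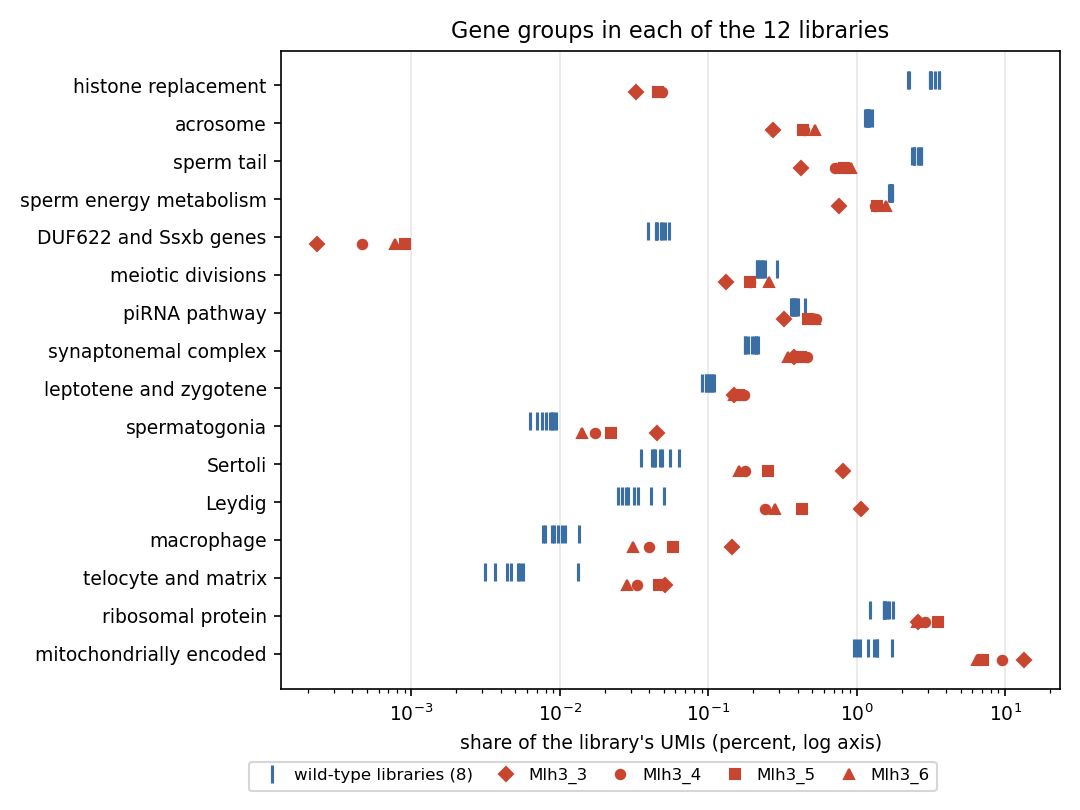
Share of each library's UMIs (percent, log axis) held by gene groups; blue ticks are the 8 wild-type libraries and red symbols the 4 Mlh3 libraries. Spermatid groups at the top lie left of wild-type, the meiotic divisions and piRNA groups overlap, and the spermatogonia, leptotene, synaptonemal complex, Sertoli, Leydig, macrophage, telocyte, ribosomal protein and mitochondrially encoded groups lie right of wild-type, with Mlh3_3 (diamonds) outermost in the Sertoli, Leydig and macrophage groups.

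For histone replacement, Sertoli and Leydig genes the share of all UMIs moved in the direction of most of their genes. Histone replacement genes made up 2.20% to 3.58% of the wild-type UMIs and 0.0325%, 0.0487%, 0.0455% and 0.0466% of those of Mlh3_3 to Mlh3_6, most of it from Brdt. Sertoli markers took 0.0350% to 0.0636% of wild-type UMIs and 0.813%, 0.177%, 0.251% and 0.160% of the Mlh3 UMIs. Leydig markers took 0.0247% to 0.0504% against 1.06%, 0.240%, 0.428% and 0.281%. In each of these 3 lists the groups did not overlap. The other lists whose groups did not overlap also moved in the direction of most of their called genes. For the peritubular myoid, piRNA, meiotic division, T cell, endothelial and erythroid lists the groups overlapped. Peritubular myoid and smooth muscle genes, of which 5 of 9 were higher, took 0.0279%, 0.00381%, 0.00516% and 0.00308% of the Mlh3 UMIs against 0.0244% to 0.0367% (exact permutation adjusted p = 0.00566). Most of the wild-type share was that of Actg2, which the pools place in spermatids. The piRNA pathway genes took 0.323%, 0.529%, 0.468% and 0.525% against 0.362% to 0.450% (exact permutation adjusted p = 0.0801).

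Genes of the X chromosome did not move in one direction. Among its 914 tested genes 337 were higher and 306 lower (median 0.44), shares close to the 32.5% and 31.6% over all genes, and all 33 spermatid-biased X-linked genes were lower (median -9.97, or -9.41 with genes at 0 counts at their bound), while 27 of 51 premeiotic-biased and 16 of 20 somatic-biased ones were higher. X-linked UMIs were 1.51%, 0.490%, 0.617% and 0.392% of the Mlh3 libraries and 0.959% to 1.08% of the wild-type libraries (exact permutation p = 0.214, adjusted p = 0.224). Mlh3_3 lay above and the other 3 below all wild-type libraries, and without Mlh3_3 the difference was -0.51 percentage points (exact permutation adjusted p = 0.00738). Of 45 Y-linked genes 39 were lower and 3 higher, with a median of -4.35. Y-linked UMIs made up 0.0179%, 0.00679%, 0.00628% and 0.00503% of the Mlh3 libraries against 0.0138% to 0.0194% (exact permutation adjusted p = 0.0215), and again Mlh3_3 alone reached the wild-type range. The Y-linked call was lost without Mlh3_4 (exact permutation adjusted p = 0.0617), Mlh3_5 (0.0694) or Mlh3_6 (0.0885). Mlh3_3 was also the oldest of the Mlh3 testes, and age, library and animal cannot be told apart.

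The mechanically dissociated MiSeq libraries Mlh3_1, Mlh3_2 and WT3 entered an alternative fit, among the alternatives of Gm10076, but no other comparison above. WT3 and WT1, also of the MiSeq, gave barcodes to the stage pools, as did the sorted secondary spermatocytes to the stricter definition, and Mlh3_2 has the same age label as Mlh3_3. Of 2285 genes that were lower at 2-fold or more without overlap and had at least 30 counts, 2011 (88.0%) were lower in both Mlh3_1 and Mlh3_2 than in WT3. Of 1974 genes higher by the same rule, 1961 (99.3%) were higher in both. The same shares over all genes are not given here, so these percentages have no background and do not measure agreement. They also rest on WT3 alone as the wild-type side. In Mlh3_1, 5.11% of barcodes held over 10% mitochondrial UMIs, against 53.4% in Mlh3_2 and 0.738% in WT3. Insl3 stood at 1502 and 122 CPM without TMM scaling in Mlh3_1 and Mlh3_2 and at 155 in WT3, Sycp1 at 397 and 1309 against 151, and Klf4 at 9.32 and 28.8 against 101. The other wild-type MiSeq library, WT1, was dissociated with enzymes and held 102 barcodes, and it was not set beside them. These values are a description without a test.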

How the data were processed

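Testis suspensions were processed by Drop-seq. Per the labels and the study's methods, the authors aligned the reads with STAR 2.5.3a to mm10 (GRCm38) and deposited raw UMI counts, 1 column per barcode, not normalized. bcl2fastq is also named in the submitters' processing notes. Here the counts of all barcodes were summed per library (12 libraries, 2172238 to 6340116 UMIs). Genes with at least 5 counts over the libraries entered edgeR 4.0.16 (R 4.3.3, limma 3.58.1), with TMM scaling, a quasi-likelihood fit of genotype on the 12 libraries and Benjamini-Hochberg adjustment over all genes, at a threshold of 0.05. SEs were calculated back from the F statistic and are not a separate estimate of counting error. The fit was tested on simulated data with 200 changed genes. Far more genes differed here (64.1% were called), so that simulation does not test the scaling of these data. DESeq2 1.42.0, other scalings, filters, barcode sets, stage definitions and left-out libraries were alternatives. In the centred alternative the effective library sizes were set so that the median log CPM of genes without stage bias was alike in all libraries. Stage pools held barcodes of at least 300 UMIs with a marker score of at least 3 from at least 2 markers, no doublet caller was run, so a barcode may hold RNA of several cells, and classes used pool values plus 5 CPM and at least 20 pool counts.

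The members and lists were chosen with earlier results of these data known. Genes named by rule were Mlh3, up to 4 members of each list with the smallest adjusted p and exceptions in the lists, and, of the class genes called at 2-fold or more without overlap, those with the smallest adjusted p (5 per stage class, 10 in each direction for genes without stage bias, at any fold where fewer reached 2-fold). Other list members named were chosen after their values were seen. Of 399 list symbols 11 had no match, and 19956 of the 21501 genes tested matched 1 chromosome of GENCODE M21. Genes with no Mlh3 count were set against a floor of 3 counts over the group, and intervals are 95% exact intervals that cover counting error only. Shares of UMIs were compared by an exact permutation test over the 495 relabellings (Python 3.11.15, scipy 1.17.1), adjusted over 28 shares. Strand was not stated for the counting, so genes that overlap on opposite strands are uncertain. A further mutant strain of the series was not analysed here, and a few list members are not reported here.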

Additional observations from a re-analysis of the deposited data

Results flagged for a closer look

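Of 64 group values examined, 13 had 1 library farther from the others than Dixon's 95% limit for the size of its group, where chance alone gives about 1 in 20. Mlh3_3, the oldest Mlh3 testis, accounted for 5. Sertoli genes took 0.813% of its UMIs, against 0.160% to 0.251% of the other Mlh3 libraries. Its myoid and smooth muscle share was 0.0279% (others 0.00308% to 0.00516%), its amyloid processing share 0.493% (others 0.126% to 0.183%) and its Y-linked share 0.0179% (others 0.00503% to 0.00679%). Barcodes with over 10% mitochondrial UMIs were 83.2% in Mlh3_3, against 66.5% to 68.9%.

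Among wild-type libraries, WT5 was highest for telocyte and matrix genes (0.0133% against 0.00311% to 0.00562%), for endothelial genes (0.00126% against 0.000663% to 0.000939%) and for amyloid processing genes (0.0699% against 0.0454% to 0.0562%), and lowest for ribosomal protein genes (1.22% against 1.52% to 1.74%). WT4 was highest for meiotic division genes (0.289% against 0.213% to 0.241%), Y-linked genes (0.0194% against 0.0138% to 0.0152%) and barcodes with over 10% mitochondrial UMIs (1.94% against 0.0668% to 0.267%). WT10 was highest for hemoglobin (0.00882% against 0.000746% to 0.00435%). What set these libraries apart was not tested.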

How the results depend on the processing

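Centred on genes without stage bias, 11708 genes were higher and 4194 lower, and with totals that leave out mitochondrial and hemoglobin genes 10502 were higher. DESeq2 called 5957 higher and 6642 lower. Leaving out 1 library gave 6285 to 6805 higher and 6418 to 7066 lower. Spermatid-biased genes called lower stayed between 610 and 612 of 613 with 1 library left out, and were 273 of 273 when a 3-fold bias was asked for. Genes without stage bias called lower numbered 81 (centred), 120 (totals), 105 (totals without mitochondrial and hemoglobin genes), 315 of 438 (sorted pools), 87 of 110 (mean of 100 CPM), 45 of 63 (1.5-fold) and 92 of 118 (7 pools, added after the data were seen), and 198 to 211 with 1 library left out. Those called higher numbered, in the same order, 93, 42, 56, 16, 3, 2 and 3, with 5 under no filter, 2 with MiSeq libraries and a platform term, and 5 to 10 with 1 library left out: 5 without Mlh3_5, WT4, WT7 or WT10. The cause was not tested. The setting of sorted pools took primary spermatocytes and spermatids from sorted MiSeq libraries of 107117 and 237167 UMIs, both of 2 months 21 days.

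The hemoglobin difference was 0.0293 points between Mlh3_4 to Mlh3_6 and WT6 to WT9 (exact permutation adjusted p = 0.0667) and 0.00989 to 0.0290 with 1 library left out, lowest without Mlh3_5 and 0.0203 without Mlh3_6, and lost its call without either. The X-linked difference was -0.51 points in the younger libraries (exact permutation adjusted p = 0.0348) and -0.51 to -0.13 with 1 library left out. The Y-linked difference was -0.00905 to -0.00477 and lost its call without Mlh3_4, Mlh3_5 or Mlh3_6. Mdm2 and Mlh3 changed sign when centred, to 0.0250 and 0.130. Of 2898 gene values named by rule over alternatives, 2875 kept their direction and call.

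Mlh3 and wild-type libraries share the replicate numbers 4, 5 and 6, but same-numbered libraries did not deviate together (r = 0.04, -0.14 and -0.23 over 5733 genes). Unlike-numbered libraries gave r from -0.16 to 0.29. Whether the numbers mark a shared batch was not tested. With the number as a block, 5069 genes were higher and 5573 lower, against 5316 and 5837 in the same 6 libraries without it. Depth limits genes near the floor of 0.162 CPM over the Mlh3 group.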

Other observations

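The MiSeq libraries, which stood outside the main comparison, gave further values for the sex chromosomes and ribosomes. X-linked UMIs were 1.18% of Mlh3_1 and 1.35% of Mlh3_2 against 1.02% of WT3, and Y-linked UMIs were 0.0148% and 0.0255% against 0.0202%. Thus Mlh3_1, from a testis of 3 months 22 days, lay above WT3 in its X-linked share, as Mlh3_3 lay above the HiSeq wild-type libraries, whereas Mlh3_4 to Mlh3_6 lay below them. Ribosomal protein transcripts took 3.84% and 2.71% of the 2 Mlh3 MiSeq libraries but 3.36% of WT3, so the separation of the HiSeq groups in this share was not seen there. Mitochondrially encoded transcripts took 4.55% and 9.24% against 0.517%. The 2 Cul4a libraries, also labelled as B6;129, had ribosomal protein shares of 2.53% and 2.40%, above all 8 wild-type HiSeq libraries and close to Mlh3_6, and mitochondrial shares of 0.720% and 0.830%, below all of them. These are values without a test.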
